A study of Mus musculus with 26 samples.

Results

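Spheroids of mouse motor neurons kept in medium labelled high intensity were compared with spheroids in medium labelled low intensity, by RNA sequencing of 9 libraries out of 26 in the series. The high group held replicates 1, 2, 3 and 6 (n = 4) and the low group replicates 1 to 5 (n = 5). Each group was labelled with 6 libraries. High replicates 4 and 5 and low replicate 6 were set aside because their counts on protein-coding genes summed to under 1000000. With 5 control libraries sharing the estimate of spread, 13548 genes were fitted, and 0 of them (0%) passed an adjusted p of 0.05 in edgeR's quasi-likelihood test with Benjamini-Hochberg adjustment. At an unadjusted p under 0.05 the same test gave 672 genes, 309 with a higher level at high intensity (2.28% of the genes fitted) and 363 with a lower level (2.68%). Where no gene differs, that threshold gives about 1 gene in 20, and both shares together do not exceed this. All gene-level differences described here are therefore measured levels and unadjusted tests, and none is a called change in that fit.

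HBG3, the parent line of the cells, is an established mouse embryonic stem cell line labelled HB9::GFP: GFP is driven there by the HB9 promoter, HB9 (gene Mnx1) being a homeodomain factor that sets motor neuron identity. The labels give the same line for all groups, with the genotype entry "heterozygous blastocysts". Differentiation used purmorphamine and retinoic acid, with ciliary and glial derived neurotrophic factors given from day 5, and fibrin was the support onto which the spheroids went at around day 8. The high and low groups carried the treatment labels "High intensity biochem" and "Low intensity biochem", and 5 libraries labelled "Biochemical control" give the background level. Control replicate 4 was set aside under the same rule, with 272212 protein-coding counts. The design text describes medium taken from muscle cells with light-driven contraction (30 min at 1 Hz) and medium that sat on unstimulated muscle, under sample names that the labels do not tie to the words high and low. The groups are for that reason called high and low intensity only, and the duration of exposure to the medium is not given in the sources used here. The comparison asks whether the labelled intensity of the medium is seen in the bulk RNA of the spheroids. The labels do not say whether replicates were separate cultures, so p-values measure the spread between these samples, which may be technical.

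Total counts were 2408099 to 3971348 in the high libraries, 1551334 to 3602716 in the low libraries and 2273487 to 3771637 in the controls. Spearman correlations of gene levels were 0.920 to 0.958 within the high group, 0.923 to 0.954 within the low group and 0.911 to 0.968 between the groups, and these ranges overlap. None of 6 library measures passed a p of 0.05 in an exact two-sided permutation test of group means, where the smallest p possible is 0.0159. The share of counts on lncRNA genes came nearest, at 2.41% ± 0.695 (SD, n = 4) in the high and 1.77% ± 0.259 (SD, n = 5) in the low group (exact permutation p = 0.0635, and 0.381 after Benjamini-Hochberg adjustment over the 6 measures). Mitochondrially encoded genes took 11.6% and 11.4% of counts, and 11.7% to 17.5% in the controls. Protein-coding genes took 76.4% to 86.3% in the high, 81.6% to 86.7% in the low and 73.7% to 78.9% in the control libraries. Control levels given below carry that difference in make-up, and its part in them was not tested. Of the markers of the labelled cells, Mnx1 lay between 2.34 and 17.6 CPM (the share of a library's counts, scaled by the TMM method) over the 9 libraries and Chat, the enzyme that makes acetylcholine, between 5.49 and 14 CPM. Slc18a3, the vesicular acetylcholine transporter, lay between 40.3 and 61.9 CPM, and Prph, the intermediate filament peripherin, between 294 and 586 CPM. Isl2 and Lhx3 did not pass the filter on low counts. The astrocyte filament gene Gfap lay between 1308 and 2562 CPM and was thus also abundant. In bulk RNA fewer cells of a type and less RNA per cell cannot be told apart.

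Several of the genes that differed most belong to a few known systems. Glycolysis splits glucose into pyruvate in the cytosol, and monocarboxylate transporters carry the lactate made from it across the membrane, with basigin as their chaperone. Many of these genes are also targets of the hypoxia-inducible factors, which are degraded when oxygen-dependent prolyl hydroxylases such as Egln1 mark them. Atf4 is the transcription factor of the integrated stress response, in which phosphorylation of the initiation factor eIF2 slows translation, and Ppp1r15a brings the phosphatase that removes that phosphate. The human silencing hub (HUSH) complex, with Tasor as its scaffold, works with the histone methyltransferase Setdb1 and its partner Atf7ip to silence retroelements and other intronless DNA.

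Promoter sequences are shown for 3 genes of the groups that were lower at high intensity, because they differ in a short element the hypoxia-inducible factors are known to bind. They come from RefSeq's table for GRCm38.p6, matched by gene symbol, and run 5′ to 3′ from 250 bases before to 50 after the gene's start. Capitals mark ACGTG as read on the printed strand, or its reverse complement CACGT.
Egln1 promoter, chr8:124949205-124949504, minus strand:
Egln1: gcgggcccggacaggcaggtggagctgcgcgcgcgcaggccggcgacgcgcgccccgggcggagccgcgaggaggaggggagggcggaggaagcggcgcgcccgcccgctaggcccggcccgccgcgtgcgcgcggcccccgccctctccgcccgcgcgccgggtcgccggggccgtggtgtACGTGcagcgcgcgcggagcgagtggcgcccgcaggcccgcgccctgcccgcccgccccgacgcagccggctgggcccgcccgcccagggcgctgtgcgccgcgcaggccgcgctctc
Ppp1r15a promoter, chr7:45526219-45526518, minus strand:
Ppp1r15a: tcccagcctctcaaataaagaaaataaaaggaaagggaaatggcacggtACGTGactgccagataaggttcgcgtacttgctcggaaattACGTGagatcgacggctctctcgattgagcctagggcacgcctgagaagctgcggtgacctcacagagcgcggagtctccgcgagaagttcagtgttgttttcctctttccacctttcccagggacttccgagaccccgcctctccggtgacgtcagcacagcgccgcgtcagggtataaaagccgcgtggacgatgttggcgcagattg
Tpi1 promoter, chr6:124814109-124814408, minus strand:
Tpi1: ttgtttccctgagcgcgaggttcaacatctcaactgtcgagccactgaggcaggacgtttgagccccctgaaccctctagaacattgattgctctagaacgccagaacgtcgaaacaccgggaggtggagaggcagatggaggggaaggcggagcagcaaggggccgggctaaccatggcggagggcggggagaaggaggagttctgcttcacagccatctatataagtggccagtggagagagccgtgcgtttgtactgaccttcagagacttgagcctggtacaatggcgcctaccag
Ppp1r15a held 2 matches, Egln1 held 1 and Tpi1 held 0. The Atf4 promoter, which is not printed, also held 0. Only ACGTG was counted, and no other form of the element. Of the 32851 promoters in the table, 19.6% held at least 1 match on either strand, against 25.8% of the 10141 promoters matched to fitted genes. In the glycolysis list 10 of 21 matched promoters held one (47.6%), in a list of hypoxia-inducible factor targets 10 of 15 (66.7%), and in the stress list 9 of 21 (42.9%). The target list was made after values were seen, from genes known as targets of these factors. A high share there follows from that choice and is not a result of these samples. The element also lies inside the CACGTG sequence that clock and other basic helix-loop-helix factors bind. An ATF4 element, TGATGNAA, was in 5 of 21 promoters of the stress list (23.8%) and in 2.16% of those of fitted genes, and in none of the 3 printed. A match is a run of letters and not a measured binding site. The shares of the glycolysis and stress lists likewise describe genes listed for their pathway and are not a result of these samples.

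Ppp1r15a had the smallest p of all genes. Its level was 39.1, 42.9, 33.1 and 43.4 CPM in high replicates 1, 2, 3 and 6, and 64.5, 77.7, 70.9, 70.3 and 73.1 CPM in low replicates 1 to 5. Every high library lay below every low library, and the controls stood between them at 54.8 to 63.8 CPM. The log2 fold change (high minus low) was -0.84 (SE 0.14, adjusted p = 0.0892 by edgeR). Atf4 was measured at 115, 98.9, 151 and 124 CPM in the high and at 198, 169, 166, 182 and 210 CPM in the low libraries. The groups did not overlap, and here the controls (93.5 to 110 CPM) lay with the high group, whereas for Ppp1r15a they lay nearer the low group. The difference was -0.60 on the log2 scale (SE 0.13, adjusted p = 0.416 by edgeR).

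**Figure D1:**
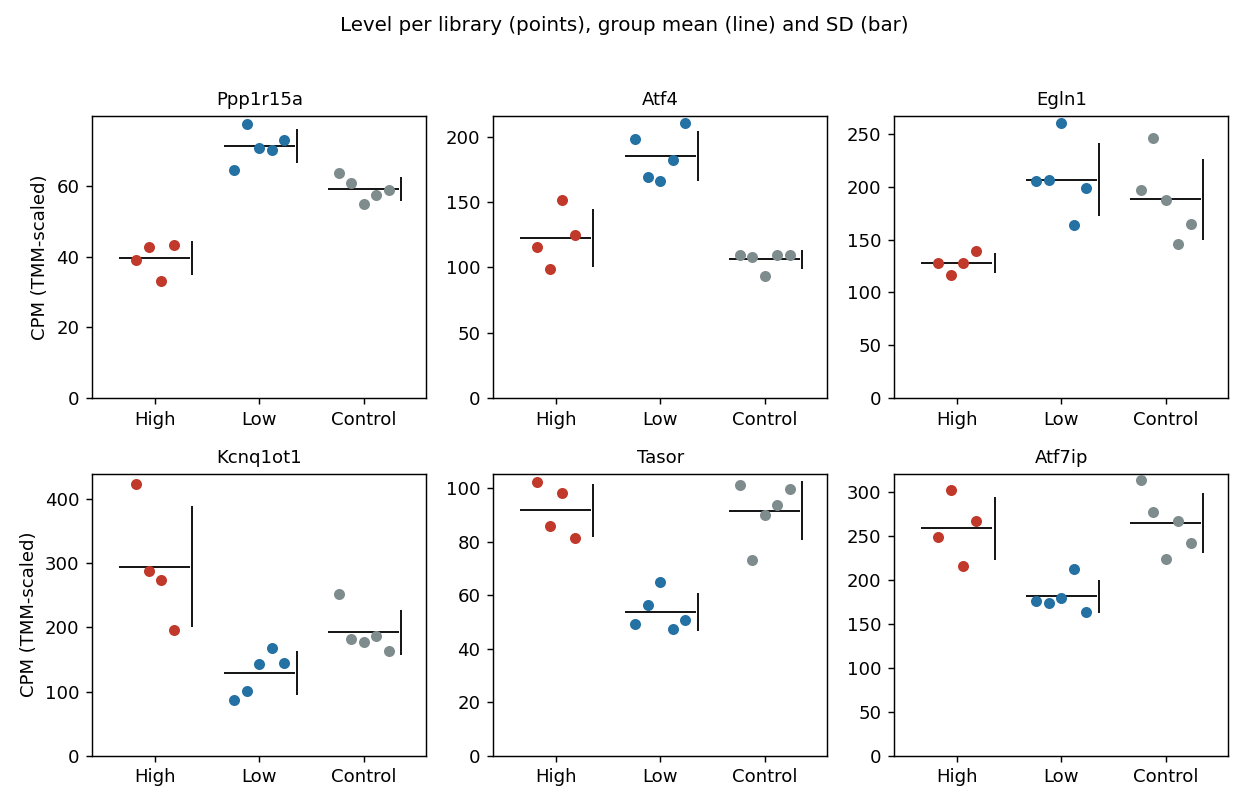
CPM (TMM-scaled, vertical axis from 0) of 6 genes in the 4 high, 5 low and 5 control libraries (horizontal axis), 1 point a library, with the group mean as a line and the SD as a bar. The upper 3 genes lie lower at high intensity and the lower 3 higher, with no overlap between high and low libraries in any panel.

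The unfolded protein and integrated stress list holds Atf4 but not Ppp1r15a. All 22 listed genes, Atf4 included, were fitted, 18 had a negative log2 fold change, and the median was -0.22, against 0.0016 over all fitted genes. Atf4, Ddit3 and Asns (3 of 22, 13.6%) had a lower level at an unadjusted p under 0.05, against the 2.68% of all genes. Ddit3, the factor CHOP that Atf4 induces, was at 36.9, 34.8, 53.7 and 37.5 CPM in the high and 50.5, 68.2, 84.9, 58.5 and 59.1 CPM in the low libraries, so high replicate 3 overlapped the low group, and it differed by -0.66 on the log2 scale. Asns, asparagine synthetase, differed by -0.42 (SE 0.15, adjusted p = 0.976 by edgeR). The chaperone gene Hspa5, a target of the other arms of the unfolded protein response, differed by -0.10 (SE 0.11). Without high replicate 3 the 3 genes of the list at p under 0.05 became 5. Heat shock genes had a median of -0.13 (-0.18 to -0.069 when 1 library was left out), with 1 of 16 lower at p under 0.05 (6.25%).

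Glycolysis and lactate transport gave the largest share of genes leaning one way among the 30 lists written with the design. All 23 genes were fitted, 21 had a negative log2 fold change and the median was -0.31 (quartiles -0.39 and -0.25, against -0.18 and 0.22 for all genes). A lower level at an unadjusted p under 0.05 was found for 16 of the 23 (69.6%, background 2.68%) and a higher one for 0. None passed an adjusted p of 0.05, the smallest being 0.623. These are abundant transcripts, and the highest of 5 equal sets of genes ranked by mean level had a median of -0.06. The summed level of the list was 5862, 6580, 6320 and 6763 CPM in the high libraries and 6828, 7885, 8513, 7716 and 7777 CPM in the low libraries, and the 5 controls lay at 7140 to 7902 CPM. The high libraries were all below the low ones, by a narrow margin between high replicate 6 and low replicate 1, and all below the controls.

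Along the pathway, the uptake genes were among those with the larger differences. Slc2a1, the glucose transporter GLUT1, was at 52.0, 42.5, 44.8 and 35.7 CPM in the high and 65.0, 85.4, 64.6, 51.0 and 65.4 CPM in the low libraries, a log2 fold change of -0.60 (SE 0.18, adjusted p = 0.716 by edgeR). Low replicate 4 fell below high replicate 1, and the controls were lower still, at 27.4 to 37.9 CPM. Hk2, the hexokinase that traps glucose in the cell, was lower by -0.70 (SE 0.19), with means of 72.9 ± 10.8 CPM (SD, n = 4) and 119 ± 33.1 CPM (SD, n = 5). Tpi1, triosephosphate isomerase, was at 161, 167, 185 and 199 CPM in the high and 229, 221, 249, 246 and 279 CPM in the low libraries. These 2 sets did not overlap, and the difference was -0.46 (SE 0.12, adjusted p = 0.623 by edgeR). Aldoa, the aldolase of muscle and many other tissues, was at 461 to 556 CPM against 567 to 728 CPM. Eno1, enolase, was at 814 to 1006 CPM against 1068 to 1182 CPM. Neither overlapped between the groups, Aldoa differing by -0.34 (SE 0.11) and Eno1 by -0.25 (SE 0.10) on the log2 scale.

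At the end of the pathway, Ldha, lactate dehydrogenase A, differed by -0.33 (SE 0.12, adjusted p = 0.922 by edgeR) and Pkm, pyruvate kinase, by -0.27 (SE 0.12). Slc16a3, the lactate exporter MCT4, was at 16.1, 22.8, 27.0 and 26.8 CPM in the high and 27.4, 41.8, 56.9, 34.8 and 33.7 CPM in the low libraries, a log2 fold change of -0.75 (SE 0.24, adjusted p = 0.790 by edgeR). With Tpi1, Aldoa and Eno1 it made 4 genes of the list whose groups did not overlap, where 202 of all fitted genes (1.49%) did not overlap in that direction. Gapdh differed by -0.18 (SE 0.11, adjusted p = 0.988 by edgeR). The 2 positive members were Pfkp at 0.16 (SE 0.20) and Slc16a7 at 0.13 (SE 0.24). Aldoa, Eno1, Ldha, Pkm, Gapdh, Pfkp, Slc16a7 and Hspa5 were chosen for mention after their values were seen. Leaving out low replicate 3 or high replicate 1 reduced the 16 genes to 10 each, a replicate block to 10 and cyclic loess scaling to 9. The TPM table reduced them to 5 and the use of all 26 libraries to 2. The median was negative in every one of these. With TPM (pseudocount 1) it was -0.47, against -0.12 over all genes.

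**Figure D2:**
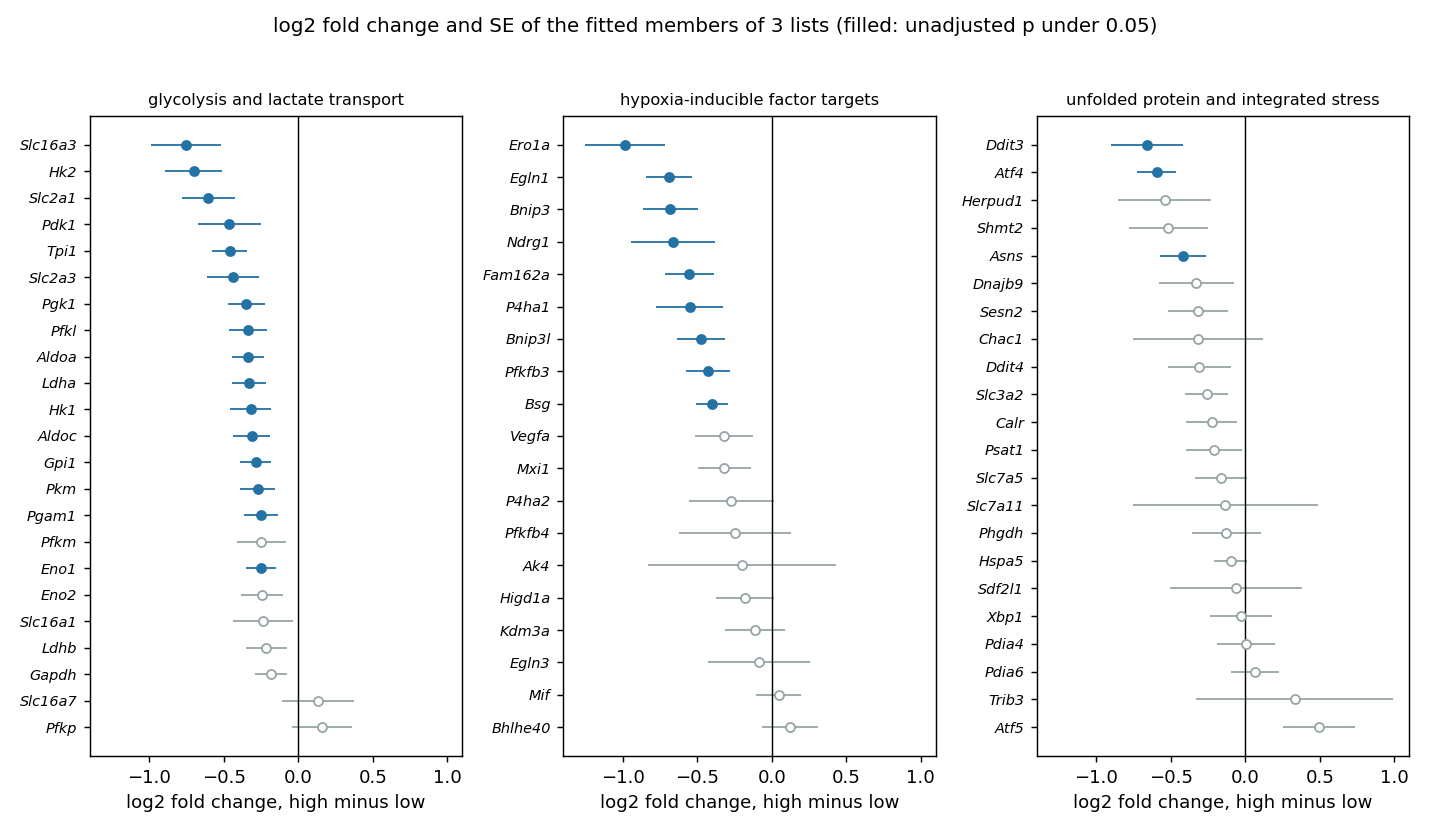
log2 fold change (high minus low, horizontal axis) with its SE (bar) for the 23, 19 and 22 fitted genes of 3 lists (vertical axis). Filled points have an unadjusted p under 0.05, all of them below 0, and no gene passed an adjusted p of 0.05.

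Targets of the hypoxia-inducible factors outside that list were gathered in a list made after values had been seen, so its count is a description of the genes chosen. Of 22 genes, 19 were fitted, 17 had a negative log2 fold change, and the median was -0.32. A level lower at an unadjusted p under 0.05 was found for 9 of 19 (47.4%, background 2.68%) and non-overlapping groups for 5 (background 1.49%), and with all 26 libraries the 9 became 2. Egln1, the prolyl hydroxylase PHD2, was at 128, 117, 128 and 140 CPM in the high and 206, 207, 260, 164 and 199 CPM in the low libraries. The groups did not overlap, the controls spread over 146 to 247 CPM, and the log2 fold change was -0.69 (SE 0.15, adjusted p = 0.416 by edgeR). Bsg, basigin, was at 427 to 521 CPM in the high and 553 to 666 CPM in the low group, with controls at 527 to 655 CPM (log2 fold change -0.40, SE 0.11). The mitophagy receptor genes Bnip3 and Bnip3l differed by -0.68 (SE 0.18) and -0.47 (SE 0.16). Ero1a, an oxidase of the endoplasmic reticulum that forms disulfide bonds, was lower by -0.98 (SE 0.27), with high replicate 3 and low replicate 5 both at 46.4 CPM. Fam162a and P4ha1, a collagen prolyl hydroxylase subunit, each had non-overlapping groups and a log2 fold change of -0.55. Pfkfb3, which makes an activator of phosphofructokinase, differed by -0.43 (SE 0.15), and Ndrg1 by -0.66 (SE 0.28). Bhlhe40 (0.12) and Mif (0.05) were the 2 positive members. Counting the full list, the summed level was 1561 to 1738 CPM in the high, 1889 to 2442 CPM in the low and 1860 to 2261 CPM in the control libraries.

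Other genes of metabolism and growth had medians closer to 0. The 30 fitted nuclear genes of oxidative phosphorylation had a median of -0.10, with 23 negative. At p under 0.05, 1 was higher (3.33%, background 2.28%) and 1 lower (3.33%, background 2.68%). The 22 genes of cholesterol synthesis had a median of -0.05 with 0 in either direction. When 1 library was left out these medians ran from -0.12 to -0.056 and from -0.072 to 0.014. The cytosolic ribosomal proteins list had a median of -0.08, with 1 of 36 lower at p under 0.05 (2.78%, background 2.68%). That median was -0.22 with 8 lower without high replicate 3, -0.15 without low replicate 3 and 0.0011 without low replicate 5.

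**Figure D3:**
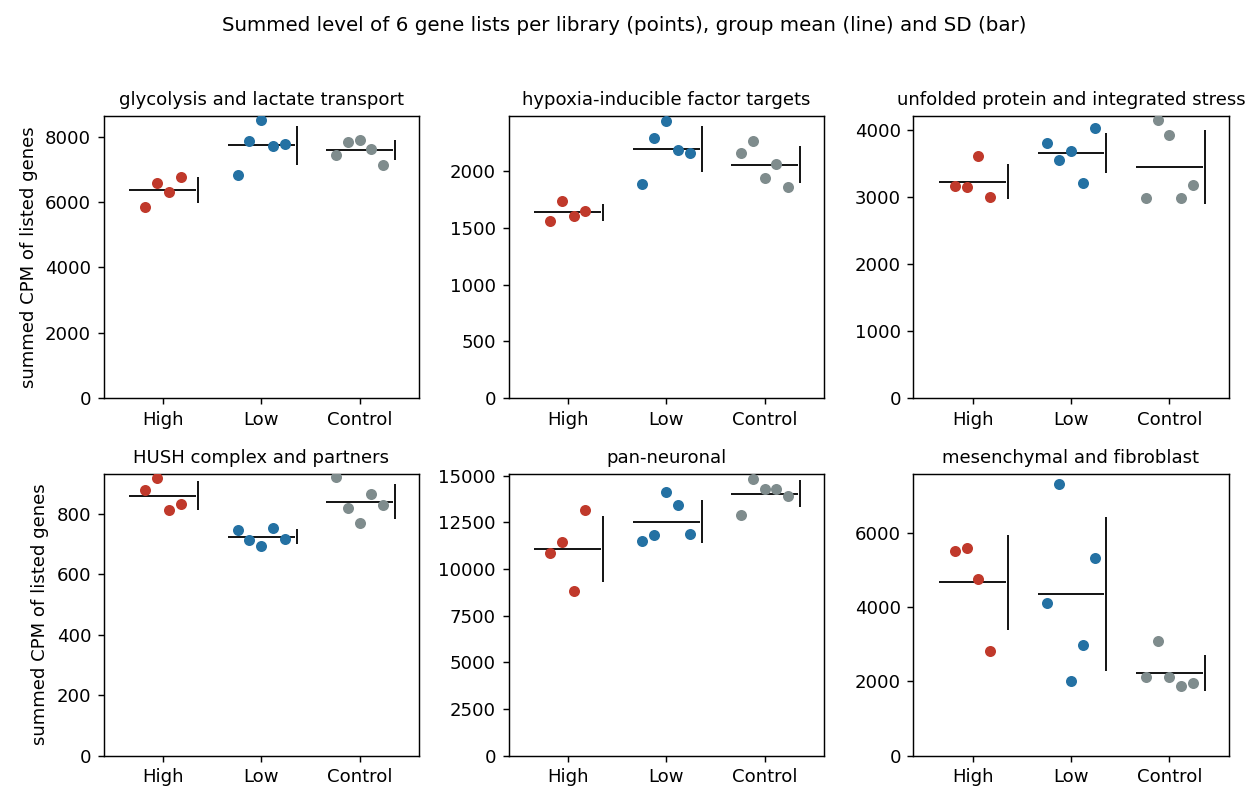
Summed CPM (vertical axis from 0) of 6 gene lists in each high, low and control library (horizontal axis), with group mean (line) and SD (bar). The glycolysis and hypoxia lists lie lower at high intensity and the HUSH list higher without overlap between high and low libraries, whereas the stress, pan-neuronal and mesenchymal lists overlap. The hypoxia and HUSH lists were made after values were seen.

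Among genes with a higher level at high intensity, Kcnq1ot1 came first. It is a long noncoding RNA, read antisense to Kcnq1 from the paternal chromosome, that silences imprinted genes around it. Its level was 423, 287, 273 and 195 CPM in the high and 86.4, 101, 143, 168 and 145 CPM in the low libraries. The groups did not overlap, although high replicate 6 was near low replicate 4, and the controls (163 to 252 CPM) lay between the group means of 295 ± 94.6 CPM (SD, n = 4) and 129 ± 33.9 CPM (SD, n = 5). The log2 fold change was 1.20 (SE 0.21, adjusted p = 0.0902 by edgeR). When 1 of the 14 libraries was left out, the adjusted p by edgeR ran from 0.0327 to 0.391. It was under 0.05 without high replicate 6 (0.0327), the lowest high library for this gene. It was also under 0.05 without low replicate 4 (0.0435), the highest low library. The high library with the largest value, replicate 1, also had the highest share of counts on lncRNA genes (3.45%, against 1.98% to 2.18% in the other 3), and the part of that share in the result was not tested. Whether the counting used strand is not given in the sources used here, though Kcnq1 itself was listed with 0 counts in each of the 3 groups. Of 9 imprinted neighbours, listed after values were seen, 5 were fitted and 0 had p under 0.05. Cdkn1c, the cell cycle inhibitor that Kcnq1ot1 is known to silence in cis, was at 33.9 to 53.4 CPM in the high and 41.4 to 63.1 CPM in the low libraries.

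Tasor was at 102, 85.7, 98.1 and 81.3 CPM in the high and 49.1, 56.5, 64.9, 47.3 and 50.7 CPM in the low libraries. The groups were well apart, and the controls, at 73.4 to 101 CPM, lay with the high group. The log2 fold change was 0.77 (SE 0.14, adjusted p = 0.117 by edgeR). Atf7ip was at 249, 302, 216 and 267 CPM against 176, 174, 180, 213 and 164 CPM, with controls at 223 to 313 CPM, again on the side of the high group (log2 fold change 0.51, SE 0.13, adjusted p = 0.623 by edgeR). Setdb1 was at 72.3, 90.9, 68.6 and 68.9 CPM against 47.7, 52.4, 46.3, 56.0 and 44.4 CPM, a log2 fold change of 0.61 (SE 0.23), and its controls spread over 25.9 to 87.1 CPM. The list of 8 HUSH genes and partners was made after values were seen, so its counts are a description of the genes chosen. Tasor and Atf7ip were among the higher genes with the smallest p. In the list, Tasor, Atf7ip and Setdb1 (37.5%, background 2.28%) had a higher level at p under 0.05. The same 3 had non-overlapping groups (background 1.22%). The other 5 had p above 0.05, among them the complex member Mphosph8 at -0.28 (SE 0.14, adjusted p = 0.976 by edgeR) and Trim28, a co-repressor that recruits Setdb1, at -0.04 (SE 0.13). From the TPM values 0 of the 8 had p under 0.05, and without high replicate 2 the count was 2. The median of the HUSH list was 0.19, and 0.11 to 0.29 when 1 library was left out. It was 0.30 with a replicate block and 0.093 with offsets for GC content and transcript length (-0.051 over all genes). From TPM (pseudocount 1) it was 0.041, against -0.12 over all genes.

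Tasor and Atf7ip were among the 12 protein-coding genes with the smallest p among 105 that had a mean of at least 10 CPM and non-overlapping groups. Zfhx4, a homeobox zinc finger gene, was at 183, 233, 199 and 223 CPM in the high and 118, 139, 149, 160 and 143 CPM in the low libraries, with controls at 197 to 245 CPM (log2 fold change 0.57, SE 0.12, adjusted p = 0.416 by edgeR). Nsd1, a methyltransferase of histone H3 lysine 36, was at 422 to 493 CPM against 273 to 375 CPM, and Kmt2c, one of histone H3 lysine 4, at 220 to 269 CPM against 150 to 199 CPM. Xrn1, the exonuclease that degrades decapped mRNA, was at 51.5 to 79.3 CPM against 30.5 to 46.7 CPM. Zc3h4, which restrains noncoding transcription, was at 65.2 to 93.0 CPM against 50.5 to 59.6 CPM, and here the controls (46.6 to 67.9 CPM) lay with the low group. Ccnh, the cyclin of the kinase that activates other cyclin-dependent kinases, differed by 0.73 (SE 0.19), Adgrv1, a very large adhesion receptor, by 0.98 (SE 0.25), and Chtf8, a subunit of an alternative clamp loader, by 0.57 (SE 0.15). The remaining 2, 4933427D14Rik (a symbol that 2 genes of the table share, the value being that of ENSMUSG00000107877) and Gm10033, differed by 1.55 (SE 0.37) and 1.17 (SE 0.29) at levels under 40 CPM. Of other biotypes, Gm22009 (1.34, SE 0.38) and Gm1976 (0.93, SE 0.31) met the rule beside Kcnq1ot1.

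The 12 genes with the smallest p in the other direction, out of 174, included Ppp1r15a, Egln1, Atf4, Tpi1 and Bsg. Cry2 and Rorb, a repressor and a nuclear receptor of the circadian clock, were in the same set. Cry2 was at 45.8, 46.9, 48.4 and 49.1 CPM in the high and 63.9, 73.7, 84.6, 78.4 and 62.8 CPM in the low libraries (log2 fold change -0.61, SE 0.17, adjusted p = 0.623 by edgeR). Its controls ran from 38.3 to 68.9 CPM and covered parts of both groups. Rorb was at 18.8 to 33.9 CPM against 35.6 to 76.8 CPM, with controls at 18.8 to 30.5 CPM, as low as the high group. A list of 17 clock genes made after values were seen had 15 fitted members with a median of -0.38. Of these, 3 (20%, background 2.68%), Cry2, Rorb and Nr1d2, were lower at p under 0.05. Cry2 and Rorb were among the genes of smallest p, so this share is a description of the genes chosen. The median of the circadian clock list was -0.19 without low replicate 5, -0.21 without high replicate 6 and -0.18 after thinning to the shallowest library. Per2 did not overlap between groups (5.90 to 12.4 against 13.4 to 24.4 CPM) and did not reach an unadjusted p of 0.05, and the core gene Clock differed by -0.02 (SE 0.18). The time of day of collection is not given in the sources used here.

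The remaining members of that set were Etv6, an ETS repressor (-0.58, SE 0.16), Add3, an adducin of the membrane skeleton (-0.45, SE 0.12), Clta, a clathrin light chain (-0.41, SE 0.11), Nop14, a factor of small ribosomal subunit assembly (-0.56, SE 0.16), and Tchh (-0.82, SE 0.23). Add3 was at 210 to 248 CPM against 267 to 379 CPM and Clta at 209 to 226 CPM against 258 to 306 CPM. Of other biotypes, Gm15387 (-0.60, SE 0.13), Gm15500 (-0.53, SE 0.12) and Gm2223 (-0.77, SE 0.18) met the rule. Gm15387 and Gm15500 are annotated as pseudogenes in the deposited table, and how reads were divided between such copies and their parent genes is not given in the sources used here. Gm6166, a processed pseudogene, had a large difference of -1.88 (SE 0.35, adjusted p = 0.117 by edgeR). It was at 9.16, 11.2, 19.4 and 11.8 CPM in the high and 54.3, 83.6, 40.6, 17.4 and 38.4 CPM in the low libraries, and low replicate 4 overlapped high replicate 3. Without low replicate 4, the low library that overlapped, the adjusted p of Gm6166 by edgeR was 0.0143. It ran up to 0.783 when other libraries were left out.

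**Figure D4:**
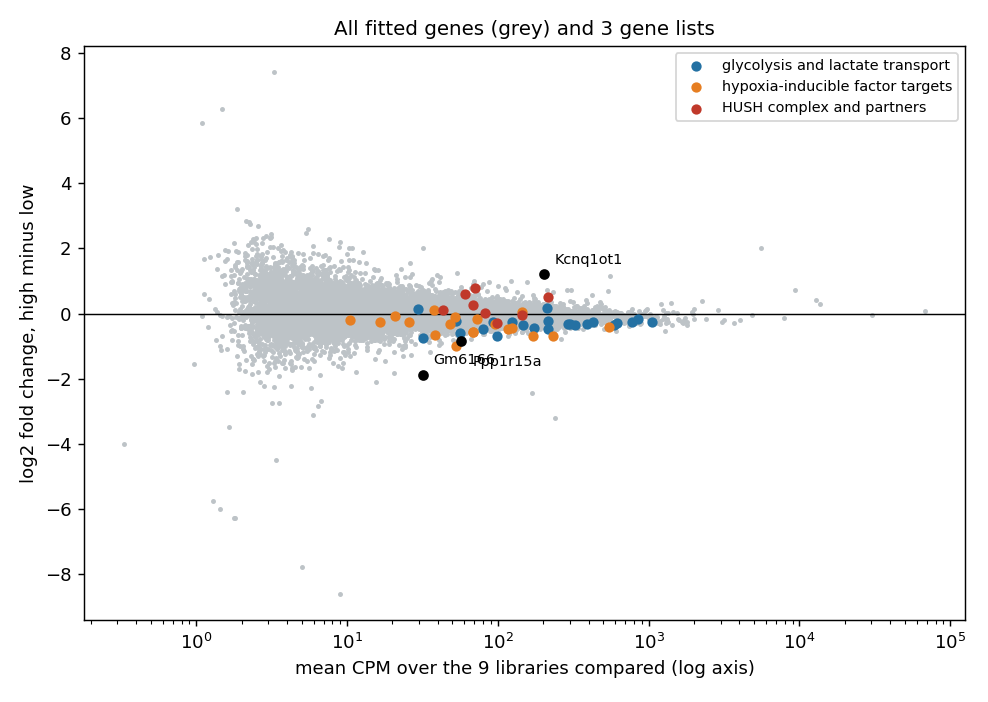
log2 fold change (high minus low, vertical axis) against mean CPM over the 9 libraries (horizontal log axis) for the 13548 fitted genes (grey), with 3 gene lists in colour and 3 named genes in black. The spread narrows with level, and most glycolysis and hypoxia list genes lie below 0 at moderate to high levels.

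Of 16 motor neuron genes, 14 were fitted, with a median of 0.23. From the TPM values with a pseudocount of 1 it was -0.085, where the median of all genes was -0.12. At p under 0.05, 1 gene was higher (7.14%, background 2.28%) and 1 lower (7.14%, background 2.68%). The motor neuron identity median was 0.00027, with 7 of 14 negative, without high replicate 2, and 0.12 without low replicate 3. Slc5a7, the choline transporter of cholinergic terminals, was at 17.1, 28.8, 17.8 and 30.3 CPM in the high and 11, 14.7, 21, 16.8 and 12 CPM in the low libraries (0.64, SE 0.28), and Nefh, the heavy neurofilament chain, differed by -0.39 (SE 0.19). Both overlapped between groups. All 20 pan-neuronal genes were fitted, 18 of them negative with a median of -0.14, and only Stmn3, a microtubule regulator, had p under 0.05 (5%, background 2.68%). The pan-neuronal list had a median of -0.058 with 12 of 20 negative and 0 at p under 0.05 without high replicate 3, and of -0.22 with 5 lower without high replicate 6. Stmn3 was at 213 to 276 CPM in the high and 277 to 320 CPM in the low libraries, with controls at 304 to 373 CPM. The summed pan-neuronal level was 8848 to 13150 CPM in the high, 11498 to 14114 CPM in the low and 12873 to 14817 CPM in the control libraries.

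Axon and synapse lists held a few genes each. In axon growth, 2 of 23 were lower (8.7%, background 2.68%), Stmn3 and the tubulin gene Tubb2a (398 to 576 against 567 to 637 CPM, -0.36, SE 0.11). In axon guidance the median was 0.13 (but -0.068 from the same TPM values, against -0.12 over all genes). There 2 of 27 were higher (7.41%, background 2.28%), the netrin receptor Unc5c and the semaphorin Sema3c. Unc5c was at 114, 138, 83.2 and 93.1 CPM in the high and 56.0, 58.7, 75.9, 94.6 and 50.4 CPM in the low libraries (0.68, SE 0.19, adjusted p = 0.623 by edgeR), with low replicate 4 inside the high range. In the synapse list, 2 of 27 were lower (7.41%, background 2.68%), and 1 to 4 when 1 library was left out. Cplx1, complexin 1, which clamps and promotes vesicle fusion, was at 198 to 300 CPM against 308 to 405 CPM without overlap. Slc32a1, the vesicular transporter of inhibitory transmitters, differed by -0.46 (SE 0.18). Trophic receptors and ligands had a median of 0.0041 (-0.13 to 0.081 when 1 library was left out). From the TPM values it was -0.20, against -0.12 over all genes. Of these, 1 of 22 was lower (4.55%, background 2.68%). Immediate early genes had a median of -0.13 (0.15 without low replicate 1), with 1 of 19 higher (5.26%, background 2.28%). In 2 of those 19 the groups did not overlap and lay lower at high intensity (background 1.49%).

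Markers of other cell types overlapped between the groups in their summed levels. The mesenchymal list had the highest median of the lists with at least 10 fitted genes, 0.49 over 21 fitted genes. Of these, 2 were higher at p under 0.05 (9.52%, background 2.28%), Col6a1 (0.98, SE 0.43) and Pdgfrb (0.80, SE 0.36). The summed level of the list was 2826 to 5574 CPM in the high, 2005 to 7308 CPM in the low and 1881 to 3078 CPM in the control libraries, the highest value being low replicate 2. Without high replicate 2 the median of the mesenchymal and fibroblast list was 0.22. Without low replicate 2 it was 0.92 and 11 genes had p under 0.05, and over all libraries left out in turn this number ran from 0 to 11. Astrocyte and radial glia genes had a median of -0.10 (0.018 without low replicate 1) and a summed level of 5212 to 5995 CPM against 5149 to 8105 CPM. Of 17 fitted, 2 were higher (11.8%, background 2.28%) and 1 lower (5.88%, background 2.68%) at an unadjusted p under 0.05. When 1 library was left out, 0 to 2 were higher and 0 to 3 lower. Cell cycle genes had a median of 0.20 (but -0.20 without high replicate 3), with high replicate 3 at 2213 CPM against 837 to 1181 CPM in the other 3 high libraries. From the TPM values the cell cycle median was -0.093, where that of all genes was -0.12 and -0.13 (pseudocounts 1 and 0.1). Of 29 skeletal muscle genes 3 were fitted and 0 had p under 0.05, and the summed counts of genes below the filter in the high, low and control libraries were 1, 1 and 0 for Myog, 18, 11 and 0 for Myod1, 17, 121 and 0 for Chrna1 and 31, 17 and 21 for Acta1. Of 14 endothelial and blood genes, 3 were fitted, and of 14 pluripotency genes, 3. The part of these markers in the glycolysis and HUSH results was not tested. Anxa3 and Plau, of the annexin and plasminogen list, spread widely within both groups (7.51 to 60.1 against 8.33 to 65.1 CPM, and 5.10 to 20.4 against 4.00 to 95.1 CPM), and 0 of 15 list members had p under 0.05. The neuronal noncoding RNA Bc1 was at 68.4 to 508 CPM in the high and 85.6 to 288 CPM in the low libraries. Gm13135 did not pass the filter on low counts.

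**Figure D5:**
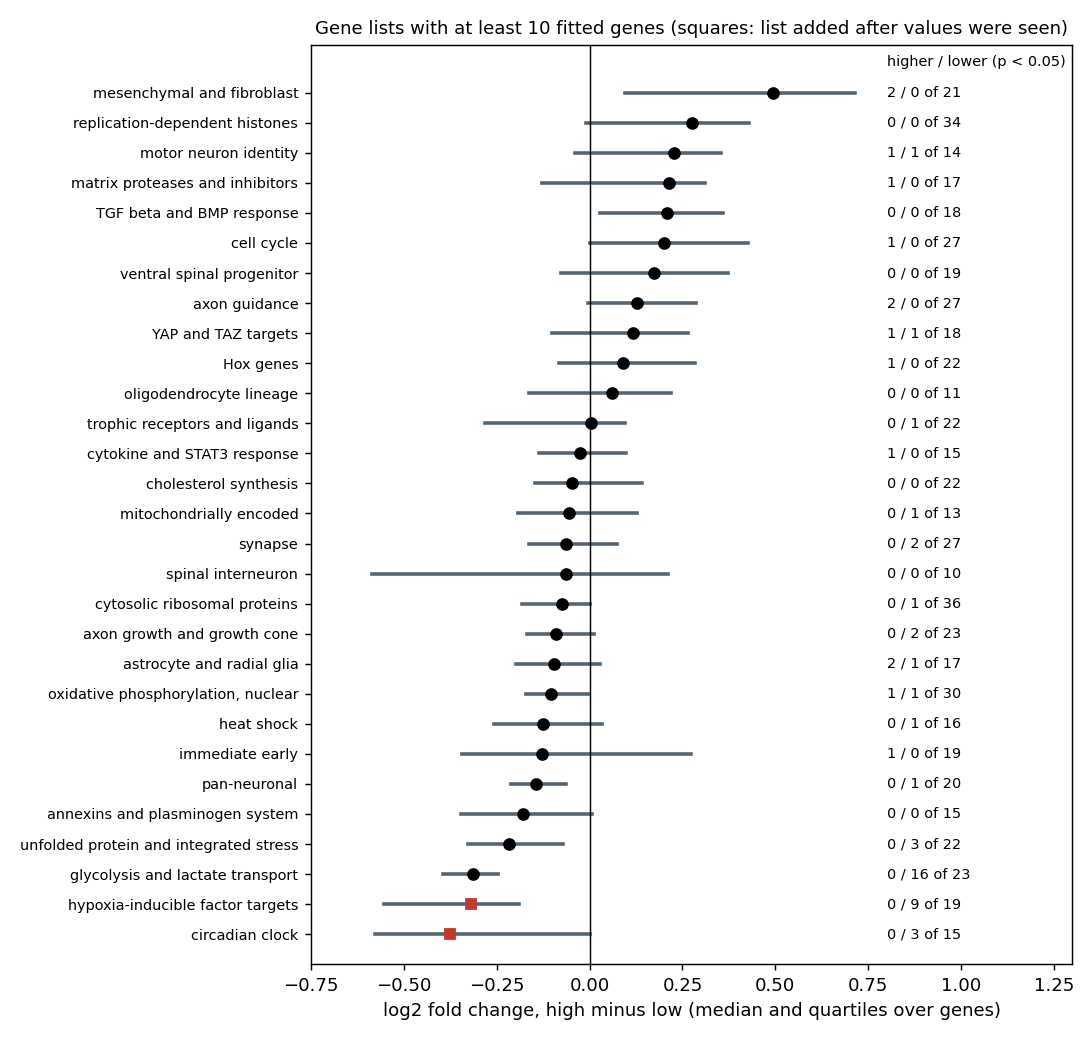
Median log2 fold change (high minus low) and quartiles over the fitted genes of each list with at least 10 such genes, with the number of genes higher and lower at an unadjusted p under 0.05 at the right. The glycolysis list has 16 of 23 genes lower, and squares mark the 2 lists added after values were seen.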

How the data were processed

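RNA was measured in 26 libraries, of which 9 are compared here and 5 controls share the estimate of spread. Per the labels' protocols, a low-input total RNA kit was used with 4 ng input (full volume for the 8 samples of lowest concentration), ribosomal fragments were cleaved, and paired reads of 50 bases were sequenced. The authors deposited expected counts per gene, rounded to whole numbers and not scaled for depth, and a table of TPM values. The submitters' processing notes name STAR, Salmon, BWA 0.7.12-r1039, bedtools 2.25.0 and the builds mm10, hg19 and GRCm39 with no role, so no gene coordinates are printed apart from those of the RefSeq promoters. Between the 2 tables, 301 cells had a count of 0 beside a TPM above 0, and 305 a count above 0 (up to 768) beside a TPM of 0.

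Counts were tested with edgeR 4.0.16 (R 4.3.3): filterByExpr, TMM scaling, a quasi-likelihood fit of the 14 libraries, the contrast high minus low, and Benjamini-Hochberg adjustment over 13548 genes. An SE is the log2 fold change divided by the root of its F, and the fit was tested on simulated data. A library needed 1000000 protein-coding counts. A count of 0 in the shallowest library of 1551334 counts allows up to 3 counts. No molecular identifiers are mentioned, so such limits cover counting error only. All 36 pairs of the 9 libraries differed beyond sampling noise (chi-square per degree of freedom 4.74 to 22.5).

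Genes were named by rule: the 12 protein-coding and 3 other genes per direction with the smallest p among those with a mean of at least 10 CPM and no overlap, up to 4 per list, any with an adjusted p under 0.05, and 5 named in an earlier account (Anxa3, Plau, Bc1, Gm6166 and Gm13135). The comparison, its members and the 30 lists were chosen with earlier results of these data known, and 4 lists (hypoxia-inducible factor targets, HUSH, Kcnq1ot1 neighbours, clock) were added after values were seen. Genes of these 4 lists fall outside the rule unless it also named them. Alternatives included DESeq2 1.42.0, limma 3.58.1 (voom, and log2 of TPM with pseudocounts of 1 and 0.1), other filters, sample sets and scalings, a replicate block, and leaving out each library. Offsets for GC content and length and cyclic loess scaling were added after seeing the data.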

Additional observations from a re-analysis of the deposited data

Results flagged for a closer look

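Values that stood far from the rest of their group (Dixon's ratio above its 95% limit) were found in 12 of 222 sets of libraries examined, or 5.41%, where chance gives about 1 in 20. High replicate 1 had 3 of them. Its lncRNA share was 3.45% against 1.98% to 2.18% in the other high libraries, its Eno1 level 814 CPM against 981 to 1006 CPM, and its Nop14 level 142 CPM against 99.7 to 106 CPM. High replicate 2 had Setdb1 at 90.9 CPM against 68.6 to 72.3 CPM, and high replicate 3 had Ddit3 at 53.7 CPM against 34.8 to 37.5 CPM.

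In the low group, replicate 5 had Plau at 95.1 CPM against 4.00 to 27.4 CPM, Nop14 at 211 CPM against 151 to 161 CPM and Per2 at 24.4 CPM against 13.4 to 15.6 CPM. Low replicate 1 had Asns at 95.5 CPM against at least 122 CPM in the other 4, and a summed oligodendrocyte list of 654 CPM against 159 to 243 CPM. Low replicate 2 had Bhlhe40 at 48.8 CPM against 29.2 to 34.3 CPM. Low replicate 4, the shallowest of the 9, had 22893 genes detected at a common depth against 15909 to 16884 in the other 4 low libraries.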

How the results depend on the processing

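The count of genes at an adjusted p under 0.05 was 0 in the main analysis and 0 in most alternatives. It was 89 with no filter on low counts, 12 with DESeq2 (Kcnq1ot1, Ppp1r15a, Gm6166, Tasor, Zfhx4, Gm15500, Gm15387, Egln1, Atf4, Nsd1, Gm24950 and Mthfs), 3 with limma voom (Ppp1r15a, Kcnq1ot1 and Tasor), 1 after thinning (Kcnq1ot1), 2 at a threshold of 0.1, and 0 to 3 when 1 library was left out. The 3 without low replicate 4 were Sfi1, Gm6166 and Kcnq1ot1, and the 1 without high replicate 6 was Kcnq1ot1. Some of the 89 had counts in only 1 of the compared libraries, such as Gm22068 (1 high, 0 low) and Gm24924 (0 high, 1 low). Others, such as Kcnq1ot1, had counts in all 4 high and 5 low libraries. Of the DESeq2 genes, Gm24950 (log2 fold change -21.8) had counts in 0 high libraries and 1 low library, and the others had counts in all of them. The cause of the differences between settings was not tested.

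Genes higher at an unadjusted p under 0.05, 309 in the main analysis, numbered 1878 without the filter, 566 with voom, 533 with the 21 deeper libraries, 171 and 114 with TPM (pseudocounts 1 and 0.1), 180 with GC and length offsets, and 229 to 394 when 1 library was left out. Those lower, 363, numbered 659, 622 and 598 in the first 3 of these, 92 with all 26 libraries, and 272 to 422 when 1 library was left out. Genes without overlap, 165 higher and 202 lower, numbered 268 higher without the filter, and 57 higher and 121 lower with TPM. With all 26 libraries they numbered 12 higher and 0 lower (low replicate 6 had 1151 protein-coding counts). When 1 high or low library was left out they numbered 256 to 396 higher and 289 to 458 lower. Fewer compared libraries make an overlap less frequent. When 1 control was left out, with the compared libraries unchanged, they numbered 175 to 178 higher and 185 to 187 lower.

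The TPM table shifted the median of all genes to -0.12 and -0.13. With it (pseudocounts 1 and 0.1) the list medians were -0.085 and -0.059 for motor neuron identity, -0.068 and -0.070 for axon guidance, -0.20 and -0.22 for trophic receptors, -0.28 and -0.35 for spinal interneurons, -0.47 and -0.47 for glycolysis, -0.42 and -0.43 for the stress list and -0.24 and -0.24 for nuclear oxidative phosphorylation. The spinal interneuron median was -0.31 with voom, -0.28 with cyclic loess and -0.27 to 0.011 when 1 library was left out, and the immediate early median -0.28 to 0.15. Leaving out 1 library kept the glycolysis median at -0.36 to -0.25.

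Some named genes changed sign: Plau (0.026 without low replicate 5, with a range of -1.31 to 0.026 when 1 library was left out), Pfkp (-0.078 without high replicate 1, range -0.078 to 0.29), Slc16a7 (-0.0089 without low replicate 2, range -0.0089 to 0.30, and -0.027 with GC and length offsets), Mif (-0.023 with voom, -0.13 and -0.13 with TPM, and -0.014 to 0.15 when 1 library was left out, lowest without high replicate 2) and Bhlhe40 (-0.050 with all 26 libraries, -0.31 and -0.32 with TPM). With all 6 libraries per group the difference in total counts was -98968 and in rRNA share -1.45 points. The mitochondrial share differed by -0.56 and -0.83 points without high replicate 1 or 3, and by -0.41 without low replicate 2, over a range of -0.83 to 1.198 when 1 library was left out.

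No pairing by replicate number was seen: same-numbered high and low libraries had correlations of -0.04, 0.10 and -0.26, and none correlated best with its own number. The groups share few numbers, so a pairing by culture or batch could be missed. With a replicate block 0 genes passed an adjusted p of 0.05 and 520 had an unadjusted p under 0.05. Depth limits genes of a few CPM, such as Mnx1.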

Other observations

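Among the mitochondrially encoded genes, some were listed at 0 in part of the libraries while their neighbours on the same transcript were abundant. The gene mt-Atp6 was at 133, 0, 32.3 and 0 CPM in high replicates 1, 2, 3 and 6 and at 547, 29.7, 113, 449 and 842 CPM in the low libraries (log2 fold change -3.22, SE 1.17, adjusted p = 0.960 by edgeR). The gene mt-Co3 was at 0, 0, 0 and 191 CPM in the high and 542, 0, 116, 478 and 191 CPM in the low libraries. In the same libraries mt-Co1 was at 3087 to 6350 CPM and 3353 to 7441 CPM and differed by -0.06 (SE 0.27). The values of mt-Atp6, mt-Co3, mt-Co2 and mt-Nd4l are therefore uncertain as levels, and their cause was not tested.

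Level and length went with the fold changes over all genes. With genes ranked by mean level and cut into 5 equal sets, the median log2 fold change went from 0.19 in the lowest to -0.06 in the highest set, and by transcript length from -0.06 in the shortest to 0.05 in the longest set. These are descriptions across genes, which are not independent replicates.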
